A study of Mus musculus with 10 samples.

Results

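The interferon response genes described here are 83 protein-coding mouse genes, among 29972 genes with a value in RNA-seq of sorted liver cells. They were chosen by symbol: the interferon receptors (Ifnar, Ifngr), the Janus kinases Jak1, Jak2 and Tyk2, the signal transducers (Stat plus a digit), the interferon regulatory factors (Irf plus a digit), the guanylate-binding proteins (Gbp plus a number), the immunity-related GTPases Igtp, Iigp1 and Irgm, the Ifit, Oas and Ifi families, and Mx1, Isg15, Isg20, Usp18, Rsad2 and Bst2. The Ifi pattern also takes in Ifih1, Ifi47 and the Ifitm genes. Of the 83 genes, 61 had at least 1 TPM (an abundance of transcripts per length, scaled to a fixed total per library) in at least 3 libraries and were tested. The other 22 are accounted for beside their families.

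Interferons are secreted signals of antiviral and immune defence. Type I interferons act through the receptor made of IFNAR1 and IFNAR2, and interferon gamma through that of IFNGR1 and IFNGR2. Janus kinases bound to these receptors phosphorylate STAT proteins, which enter the nucleus and switch on effector genes. STAT proteins bind the interferon-stimulated response element (ISRE) in a complex with IRF9, and STAT dimers bind the gamma-activated site (GAS). Guanylate-binding proteins and immunity-related GTPases are induced above all by interferon gamma, whereas the Ifit, Oas and Mx genes are classical targets of type I interferon. In the liver the pathway is best known from viral hepatitis and from immune injury of bile ducts.

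Values came from 10 libraries in 3 groups. The 4 HpC libraries held hepatocyte-derived peripheral cholangiocytes, bile duct cells of the small intrahepatic ducts that arose from hepatocytes, from Alb-Cre+/-;Rbpjf/f;Hnf6f/f mice at postnatal ages P124, P151, P144 and P139 in HpC1 to HpC4. The 3 pC libraries held peripheral cholangiocytes of Rbpjf/f;Hnf6f/f mice without Cre, at P151, P119 and P142 in pC1 to pC3. The 3 H libraries held hepatocytes of Alb-Cre+/-;Rbpjf/f;Hnf6f/f mice, at P134, P139 and P139. All mice thus carried floxed alleles of Rbpj, which encodes the nuclear DNA-binding protein through which Notch receptors act, and of Hnf6, a transcription factor of bile duct formation, on a mixed C57BL/6, FVB and CD1 background. Cre was driven by the albumin promoter, which is active in hepatocytes and in the fetal precursors that they share with cholangiocytes. The cholangiocytes came from the nonparenchymal fraction after further digestion, and H from perfused liver. Cell origin and Cre genotype cannot be told apart between HpC and pC, nor can cell type and preparation between HpC and H. Between pC and H, cell type, preparation and Cre genotype all differ and cannot be told apart. H2 and H3 shared an age that HpC4 also had, and the labels do not say whether any of them came from the same mouse, so the spread within H may be technical.

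Library-wide facts bear on every value below. Depth is unknown, since each library summed to the same TPM total, and 10232 to 14489 genes reached 1 TPM per library. TPM was divided by scaling factors of 0.668 to 1.61 in HpC, 1.53 to 1.59 in pC and 0.499 to 0.585 in H, and values are called scaled TPM. Relative to scaled values, the deposited TPM shifts the median gene by -0.35 on the log2 scale in HpC against pC, by 0.79 in HpC against H and by 1.09 in pC against H. Differences are therefore relative to the typical gene. Summed cholangiocyte markers ran from 1674 to 2558 scaled TPM in HpC and from 5226 to 5417 in pC, against 30.9 to 43.1 in H. Spp1 made up most of that sum in pC, and the other 7 markers summed to 761 to 1519.8 in HpC and 1007 to 1170.0 in pC. Summed hepatocyte markers ran from 3088 to 5718 in HpC and from 998 to 2592 in pC, against 77308 to 87981 in H. At gene level, which also counts reads outside floxed exons and so does not check the deletion, Rbpj ran from 4.09 to 6.24 in HpC and from 5.51 to 6.82 in pC, against 1.196 to 1.59 in H. Hnf6 (Onecut1) ran from 19.3 to 46.3 in HpC and from 62.997 to 81.9 in pC, against 46.02 to 109 in H. HpC1 stood apart with 181078 scaled TPM over 6 pancreatic acinar genes, and HpC2 with 33316 over 6 squamous epithelial genes.

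Promoters of 6 genes are shown because the differences between HpC and pC centre on such genes and their windows hold interferon motifs. Each window spans 250 bases before and 50 bases from the RefSeq transcription start (GRCm38.p6, printed on the gene's strand), with every match to the ISRE letters GAAANNGAAA or the GAS letters TTCNNNGAA on either strand in capitals. The first 5 genes are GTPases that were lower in HpC than in pC, and the last is Irf1, a transcription factor between the STAT proteins and many of these targets.
Igtp: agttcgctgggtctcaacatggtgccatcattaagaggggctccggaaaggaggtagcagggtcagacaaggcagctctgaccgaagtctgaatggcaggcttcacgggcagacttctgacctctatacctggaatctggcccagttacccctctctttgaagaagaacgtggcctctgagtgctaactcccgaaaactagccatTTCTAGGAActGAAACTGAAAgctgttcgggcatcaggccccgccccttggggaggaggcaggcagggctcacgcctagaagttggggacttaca
Irgm1: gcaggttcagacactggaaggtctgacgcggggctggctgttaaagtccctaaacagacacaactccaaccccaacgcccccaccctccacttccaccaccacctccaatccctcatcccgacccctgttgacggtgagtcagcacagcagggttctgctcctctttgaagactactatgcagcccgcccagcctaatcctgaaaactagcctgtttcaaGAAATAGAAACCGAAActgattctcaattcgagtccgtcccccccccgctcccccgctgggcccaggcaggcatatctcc
Irgm2: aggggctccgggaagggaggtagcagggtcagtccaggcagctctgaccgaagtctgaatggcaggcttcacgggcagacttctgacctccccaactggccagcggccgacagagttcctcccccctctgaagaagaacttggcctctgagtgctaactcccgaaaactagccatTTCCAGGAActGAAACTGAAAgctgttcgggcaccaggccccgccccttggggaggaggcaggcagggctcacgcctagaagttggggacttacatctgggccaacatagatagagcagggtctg
Gbp2: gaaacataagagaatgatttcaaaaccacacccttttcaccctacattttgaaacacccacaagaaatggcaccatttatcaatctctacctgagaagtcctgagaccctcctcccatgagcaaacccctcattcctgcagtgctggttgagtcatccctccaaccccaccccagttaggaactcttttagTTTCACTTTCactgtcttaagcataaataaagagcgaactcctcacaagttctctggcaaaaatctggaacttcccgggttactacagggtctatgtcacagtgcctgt
Gbp7: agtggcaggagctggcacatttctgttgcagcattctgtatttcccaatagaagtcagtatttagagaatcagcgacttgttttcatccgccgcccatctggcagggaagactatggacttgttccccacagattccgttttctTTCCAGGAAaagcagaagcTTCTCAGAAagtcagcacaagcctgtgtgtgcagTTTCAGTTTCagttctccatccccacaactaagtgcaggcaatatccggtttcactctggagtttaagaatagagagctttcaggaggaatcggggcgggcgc
Irf1: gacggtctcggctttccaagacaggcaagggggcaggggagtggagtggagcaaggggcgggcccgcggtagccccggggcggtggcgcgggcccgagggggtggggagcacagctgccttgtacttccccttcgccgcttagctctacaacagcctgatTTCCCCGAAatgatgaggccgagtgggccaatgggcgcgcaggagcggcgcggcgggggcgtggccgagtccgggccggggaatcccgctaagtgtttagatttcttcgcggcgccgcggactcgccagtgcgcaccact

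The Igtp window lies at chr11:58199306-58199605, strand +, and holds an ISRE match that begins 34 bases and a GAS match that begins 45 bases before the start. The Irgm2 window, at chr11:58214727-58215026, strand +, holds the same pair of motifs in the same order, 64 and 75 bases before its start. Igtp and Irgm2 windows share a run of 61 identical bases, whereas the longest run shared by any other pair of the 6 windows was 11 bases. The Irgm1 window, at chr11:48871371-48871670, strand -, holds 2 ISRE matches that overlap by 4 bases and begin 30 and 24 bases before the start. The Gbp2 window, at chr3:142620413-142620712, strand +, has an ISRE match 59 bases before the start, on the opposite strand. The Gbp7 window, at chr3:142530086-142530385, strand +, has an ISRE match 53 bases and GAS matches 106 and 87 bases before the start. The Irf1 window, at chr11:53769764-53770063, strand +, has a GAS match 90 bases before the start and no ISRE match.

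Such letters were common in the interferon genes as a family and not only in those that differed. Of 69 members with a RefSeq window, 34 (49.3%) held an ISRE match and 17 (24.6%) a GAS match in at least 1 window, against 3.99% and 9.55% of 27025 genes in the whole table. Of the 10 members with a window that were lower in HpC than in pC, 8 held an ISRE match and 5 a GAS match. Among the 39 tested members with a window that were not called, 16 (41.0%) held an ISRE match and 10 (25.6%) a GAS match. A match describes letters in a window and not binding.

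Between the cholangiocyte groups, 9 of the 14 interferon gamma type GTPases, 3 of 7 Irf genes and 1 of 6 Stat genes were lower in HpC than in pC. By limma on log2(scaled TPM + 1), with Benjamini-Hochberg adjustment over all 14765 genes tested at 5%, 14 members were lower in HpC, 1 was higher and 46 did not pass. The called share was 24.6% of the 61 tested members, against 4.54% of all genes tested (671), of which 1.99% were higher and 2.55% lower. The lower members were Stat4, Irf1, Irf2, Irf9, the GTPases Igtp, Irgm1, Irgm2 and Iigp1, the guanylate-binding proteins Gbp2, Gbp4, Gbp7, Gbp9 and Gbp10, and the RNA sensor Ifih1. The higher one was the receptor chain Ifngr1. On deposited TPM the members split into 0 higher and 14 lower, of which 11 were also called on scaled values. Irf2, Irf9, Ifih1 and Ifngr1 lost their calls on that scale. Of the 552 calls over all genes on deposited TPM, 26.1% were higher. All libraries of HpC lay below all of pC in 20 members and above them in 2, against 9.72% and 6.78% of all genes tested. Among these members, Stat4 and Gbp2b reached 1 TPM only in pC, and Ifi204 only in HpC. Their order was thus largely set by the filter. The median log2 difference was -0.32 over the tested members and -0.01 over all genes tested. In sorted bulk samples, fewer cells of a type and less RNA per cell cannot be told apart.

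**Figure D1:**
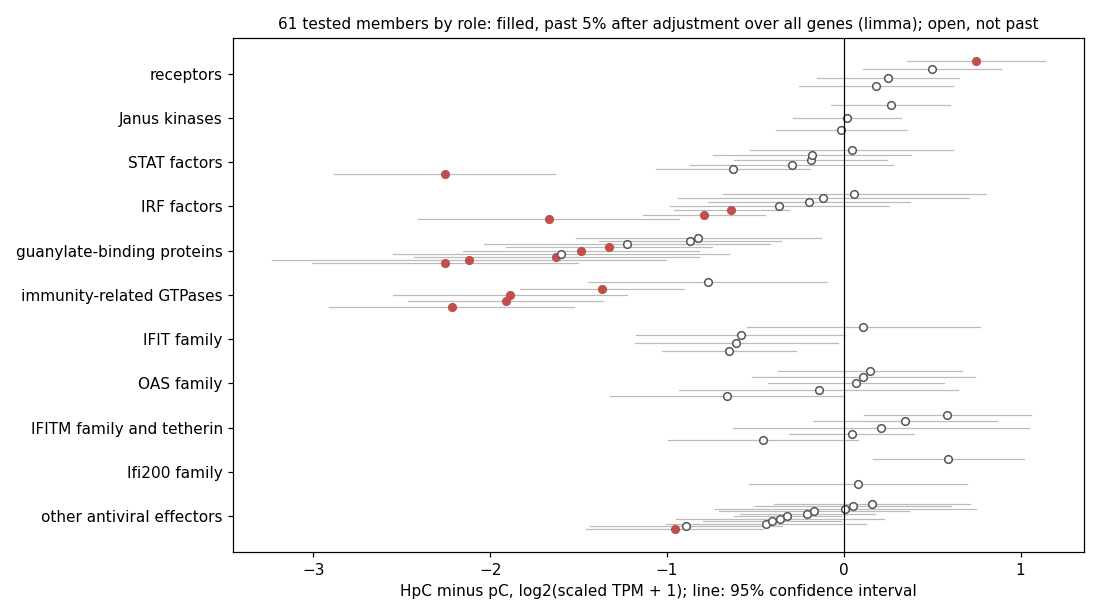
Difference between HpC and pC in log2(scaled TPM + 1) for the 61 tested members, 1 point per gene with its 95% confidence interval, grouped by role from receptors at the top to effectors at the bottom; filled points passed 5% by limma over all genes and open points did not. All 9 guanylate-binding proteins and all 5 immunity-related GTPases lie left of 0, while the 4 receptors lie right of 0 and the OAS and IFITM families lie on both sides.

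None of the 4 receptor chains was called lower in HpC, and Ifngr1 was higher. Ifngr1, the ligand-binding chain of the interferon gamma receptor, had 175, 131, 197 and 189.5 scaled TPM in HpC1 to HpC4, against 91.96, 92.6 and 123 in pC1 to pC3. Every HpC library exceeded every pC library, and the log2 difference was 0.75 ± 0.18 (SE), with an adjusted p of 0.0408 by limma. This call did not hold on the deposited TPM scale (0.32, adjusted p = 0.590), nor without any 1 of HpC1, HpC3, HpC4, pC1, pC2, H1, H2 or H3, where the adjusted p reached 0.188. Ifngr2, the signalling chain of that receptor, had 17.99, 13.3, 21.4 and 18.9 scaled TPM in HpC, against 12.6, 10.3 and 13.99 in pC. The groups overlapped at their edges and the difference of 0.50 ± 0.17 (SE) did not pass (limma adjusted p = 0.164). For the type I receptor, Ifnar1 had 20.5, 14.6, 24.8 and 20.6 in HpC against 20.5, 16.2 and 15.6 in pC. Its partner Ifnar2 had 62.8, 43.9, 70.8 and 53.8 in HpC against 48.7, 48.6 and 45.8 in pC. Neither chain passed, and the 95% intervals of the log2 difference ran from -0.25 to 0.62 for Ifnar1 and from -0.15 to 0.65 for Ifnar2.

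The Janus kinases overlapped between HpC and pC. Jak1, which serves both receptor types, had 83.96, 83.6, 83.4 and 98.7 scaled TPM in HpC against 61.1, 70.6 and 87.8 in pC. Jak2, the partner of the interferon gamma receptor, had 6.59, 8.97, 9.82 and 9.01 in HpC against 7.71, 8.595 and 9.65 in pC. Tyk2, the partner of the type I receptor, had 3.04, 2.78, 2.58 and 2.88 in HpC against 2.82, 3.01 and 2.49 in pC. None of the 3 passed by limma, with 0 at an unadjusted p under 0.05, and the 95% intervals of their log2 differences were -0.07 to 0.60, -0.39 to 0.35 and -0.29 to 0.32.

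**Figure D2:**
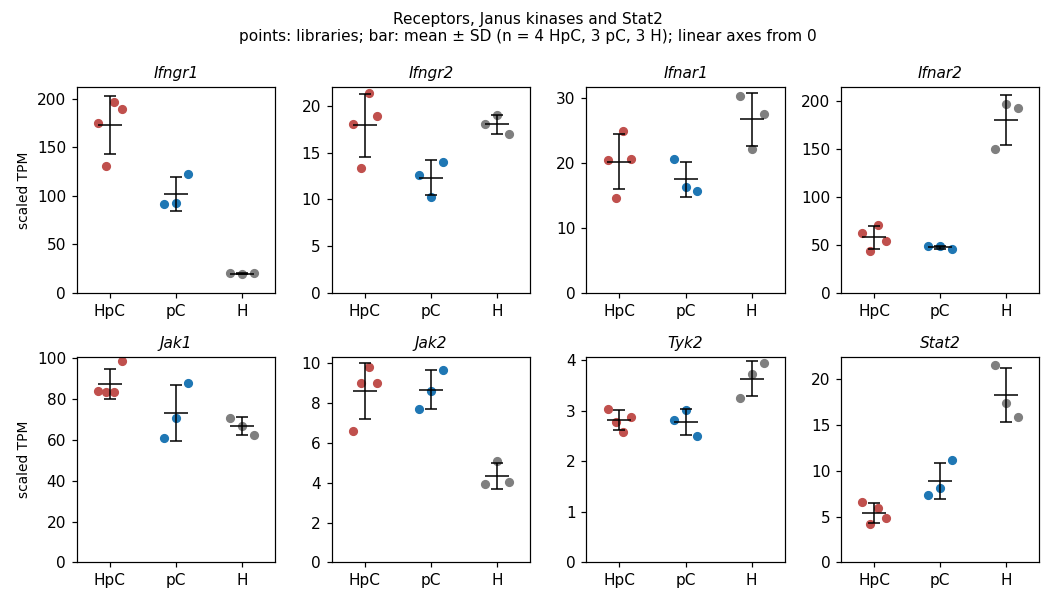
Scaled TPM of the 4 receptor chains, 3 Janus kinases and Stat2 in each library (points), with mean ± SD, for HpC (n = 4), pC (n = 3) and H (n = 3) on linear axes from 0. HpC libraries lie above pC libraries for Ifngr1 and below them for Stat2, whose difference did not pass the test, and overlap with them for the other 6 genes.

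Among the 6 Stat genes described here, 1 was lower in HpC. Stat4, best known from lymphocytes responding to interleukin 12, had 1.37, 0.188, 0.483 and 0.608 scaled TPM in HpC1 to HpC4, against 10.02, 6.66 and 4.404 in pC1 to pC3, and was listed at 0 in all H libraries. Every HpC library lay below every pC library. Its log2 difference was -2.26 ± 0.28 (SE; limma adjusted p = 0.00213), but Stat4 was tested only because all 3 pC libraries exceeded 1 TPM, and it fell under the filter when any pC library was left out. Summed T, NK and B cell markers ran from 0.741 to 3.15 scaled TPM in HpC and from 0.201 to 2.23 in pC. Their part in the Stat4 levels was not tested.

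Stat2, a transducer of type I signalling, had 6.57, 4.18, 5.92 and 4.82 scaled TPM in HpC against 7.38, 8.09 and 11.2 in pC. The groups did not overlap, yet the log2 difference of -0.63 ± 0.20 (SE) did not pass by limma (adjusted p = 0.113). Stat3, the most abundant of these Stat genes and the main transducer of interleukin 6, had 183, 282, 229.5 and 302 in HpC against 195, 361 and 383 in pC and overlapped between them. Stat5a, Stat5b and Stat6, which transduce growth hormone and interleukin signals, also overlapped, with log2 differences of -0.18, -0.19 and 0.04 that did not pass.

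Of 8 Irf genes, 7 were tested and 3 were lower in HpC. Irf1, a direct target of STAT proteins that activates interferon gamma effectors, had 164, 123, 232 and 322 scaled TPM in HpC1 to HpC4, against 454, 728 and 752 in pC1 to pC3. It was the most abundant of these Irf genes in every HpC and pC library, and its log2 difference was -1.67 ± 0.33 (SE; limma adjusted p = 0.0195). The Irf1 call ended without pC2, without pC3 and without both HpC1 and HpC2, where the limma adjusted p was up to 0.0976. Irf9, the DNA-binding part of the type I complex, had 13.1, 13.96, 13.96 and 16.3 in HpC against 20.2, 28.7 and 28.4 in pC. All HpC libraries lay lower, by -0.79 ± 0.15 (SE; limma adjusted p = 0.0183), a call that ended without HpC3, pC2 or pC3 and on deposited TPM (largest adjusted p 0.103). Irf2, which competes with IRF1 for the same sites, had 15.97, 15.5, 17.01 and 15.6 in HpC against 23.8, 31.1 and 22.3 in pC. Its log2 difference of -0.64 ± 0.15 (SE; limma adjusted p = 0.0367) lost its call without any 1 of the 10 libraries and on deposited TPM, with a limma adjusted p of up to 0.172.

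Irf7, the amplifier of type I interferon production, had 22.3, 11.2, 11.7 and 19.8 scaled TPM in HpC against 16.1, 25.9 and 20.01 in pC. The groups overlapped, with a 95% interval of the log2 difference from -0.98 to 0.26. Irf3, Irf5 and Irf8 did not pass, and Irf4, a lymphocyte factor, was not tested, with at most 0.161 scaled TPM in HpC3.

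The immunity-related GTPases attack the vacuoles in which parasites and bacteria hide, and 4 of the 5 were lower in HpC. Summed over the 5 genes, they had 71.3, 52.9, 76.5 and 52.01 scaled TPM in HpC1 to HpC4, against 155, 218 and 296 in pC1 to pC3. The sums did not overlap. Igtp (chr11:58199556-58207591, + strand), a regulatory member that guards the cell's own membranes, had 14.7, 12.7, 17.6 and 10.1 in HpC against 46.3, 64.5 and 98.95 in pC. The log2 difference of Igtp was -2.22 ± 0.31 (SE; limma adjusted p = 0.00358). Irgm2, a relative with the same role, had 8.897, 6.24, 8.77 and 6.19 in HpC against 25.8, 31.8 and 35.4 in pC, a log2 difference of -1.91 ± 0.25 (SE; limma adjusted p = 0.00259). Its annotated span, chr11:58199618-58222782, overlaps that of Igtp on the same strand, so reads may have been split between these genes.

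Irgm1, the regulator whose loss in mice impairs resistance to mycobacteria, had 24.6, 20.8, 26.5 and 21.6 scaled TPM in HpC against 45.2, 65.4 and 79.7 in pC. Its log2 difference was -1.37 ± 0.21 (SE; limma adjusted p = 0.00521). Iigp1, an effector GTPase that coats the vacuole of Toxoplasma, had 16.3, 8.86, 12.998 and 7.76 in HpC against 28.9, 43.5 and 65.4 in pC. Iigp1 differed by -1.89 ± 0.30 (SE; limma adjusted p = 0.00632). The calls of Igtp, Irgm1, Irgm2 and Iigp1 held in all 17 other settings. Ifi47, a further effector, had 6.68, 4.27, 10.5 and 6.33 in HpC against 8.38, 12.8 and 16.1 in pC, overlapped and did not pass (-0.77 ± 0.30, SE; limma adjusted p = 0.217).

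The guanylate-binding proteins, GTPases that coat and break open vacuoles and bacteria, gave calls for 5 of 9 genes. All 9 were tested, 5 were lower in HpC, 4 did not pass, and in 8 of the 9 all HpC libraries lay below all pC libraries. Their summed level was 43.1, 30.5, 55.6 and 45.2 scaled TPM in HpC1 to HpC4, against 82.1, 141 and 252 in pC1 to pC3. Gbp10 had 2.95, 3.201, 6.12 and 4.39 in HpC against 13.2, 24.4 and 37.4 in pC, and its log2 difference of -2.26 ± 0.34 (SE; limma adjusted p = 0.00487) held in all 17 other settings. Gbp7 had 2.34, 0.897, 1.65 and 1.14 in HpC against 3.55, 6.05 and 9.09 in pC, with a log2 difference of -1.49 ± 0.30 (SE; limma adjusted p = 0.0208). Gbp9 had 7.08, 7.56, 14.1 and 11.4 in HpC against 19.4, 24.2 and 36.1 in pC, with a log2 difference of -1.33 ± 0.26 (SE; limma adjusted p = 0.0186). These 3 genes were lower in every HpC library than in any pC library.

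Gbp2, which is recruited to Toxoplasma vacuoles, had 8.16, 6.05, 9.82 and 6.03 scaled TPM in HpC against 13.2, 27.04 and 42.3 in pC, a log2 difference of -1.63 ± 0.36 (SE; limma adjusted p = 0.0319). Gbp4 had 4.37, 1.81, 3.82 and 4.35 in HpC against 7.25, 16.96 and 47.6 in pC, a log2 difference of -2.12 ± 0.50 (SE; limma adjusted p = 0.0415). In both genes the level in pC3 was over 3 times that in pC1. Several of these calls ended when 1 library was left out. Gbp9 lost its call without pC2 or pC3, and Gbp7 without HpC3, pC2 or pC3. Gbp2 lost its call without any 1 of the HpC libraries, pC2, pC3 or H3, and Gbp4 without any 1 library but pC1. The largest adjusted p with 1 library or both HpC1 and HpC2 left out was 0.0924 for Gbp9, 0.0917 for Gbp7, 0.141 for Gbp2 and 0.166 for Gbp4. Gbp8 had 14.4, 8.84, 16.2 and 14.97 in HpC against 20.3, 32.2 and 51.8 in pC without overlap, but did not pass (-1.23 ± 0.36, SE; limma adjusted p = 0.0971). Gbp2b, Gbp3 and Gbp5 had log2 differences of -0.87, -1.60 and -0.82 that did not pass. Gbp2b passed the filter only through pC, so its lack of overlap was largely set by the filter. The family holds near-identical copies, and the annotated spans of Gbp4, Gbp8 and Gbp9 overlap on chromosome 5, so single-gene values are uncertain.

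**Figure D3:**
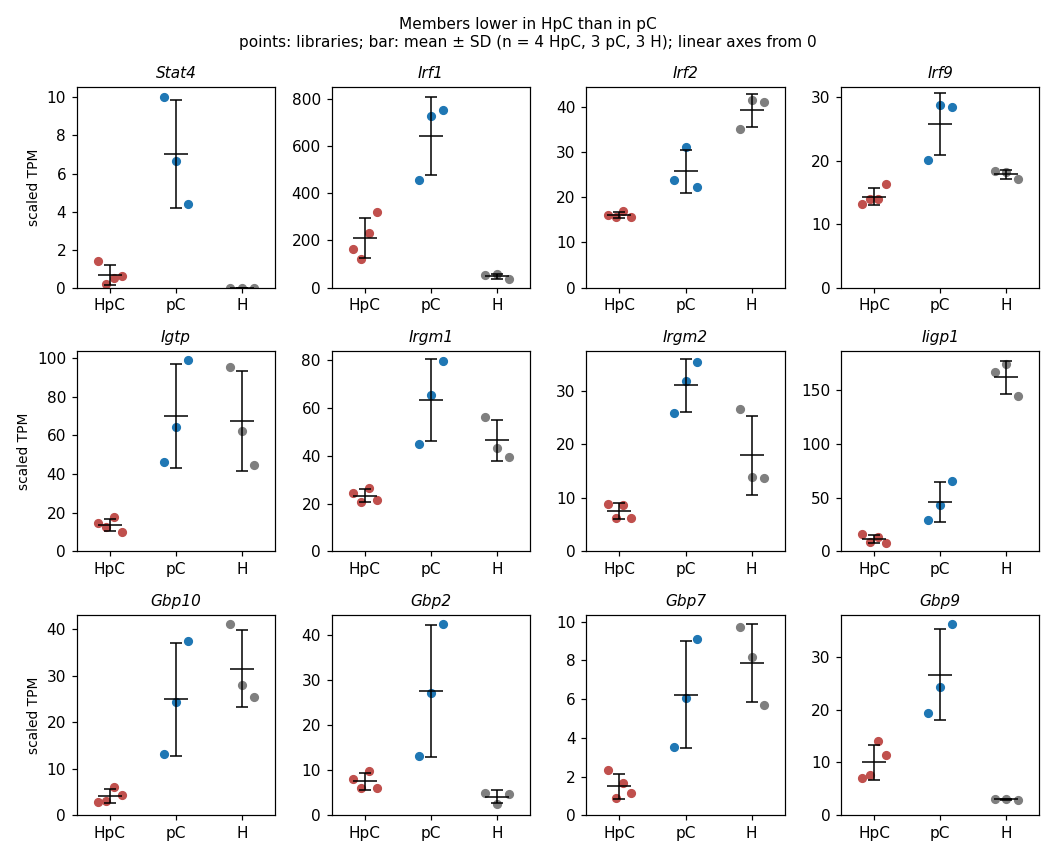
Scaled TPM of 12 of the 14 members that were lower in HpC than in pC, in each library (points), with mean ± SD, for HpC (n = 4), pC (n = 3) and H (n = 3) on linear axes from 0. In every panel all HpC points lie below all pC points, and H lies above both for Irf2 and Iigp1 and below both for Irf1, Stat4, Gbp2 and Gbp9.

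The pC libraries differed among themselves in a shared way. All 9 guanylate-binding proteins and all 5 immunity-related GTPases had their highest pC level in pC3. Over all 61 tested members this was so for 44 genes (72.1%), against 35.0% of all genes tested. The pC3 library also differed in its markers, with summed pancreatic acinar markers of 806 scaled TPM in pC3 against 8.92 in pC1 and 5.496 in pC2. Its hepatocyte sum was the lowest of pC at 998, and its leukocyte sum the highest at 9.102, against 2.79 in pC1 and 5.22 in pC2. Lcp1, a leukocyte marker with its highest levels in H, gave 6.06 of that leukocyte sum in pC3. The part of these differences in the pC3 levels was not tested. With pC3 left out, 6 members were called between HpC and pC, of which 5 were lower. The member share of deposited TPM was 0.0918% to 0.254% in HpC and 0.248% to 0.412% in pC, against 0.0812% to 0.106% in H.

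**Figure D4:**
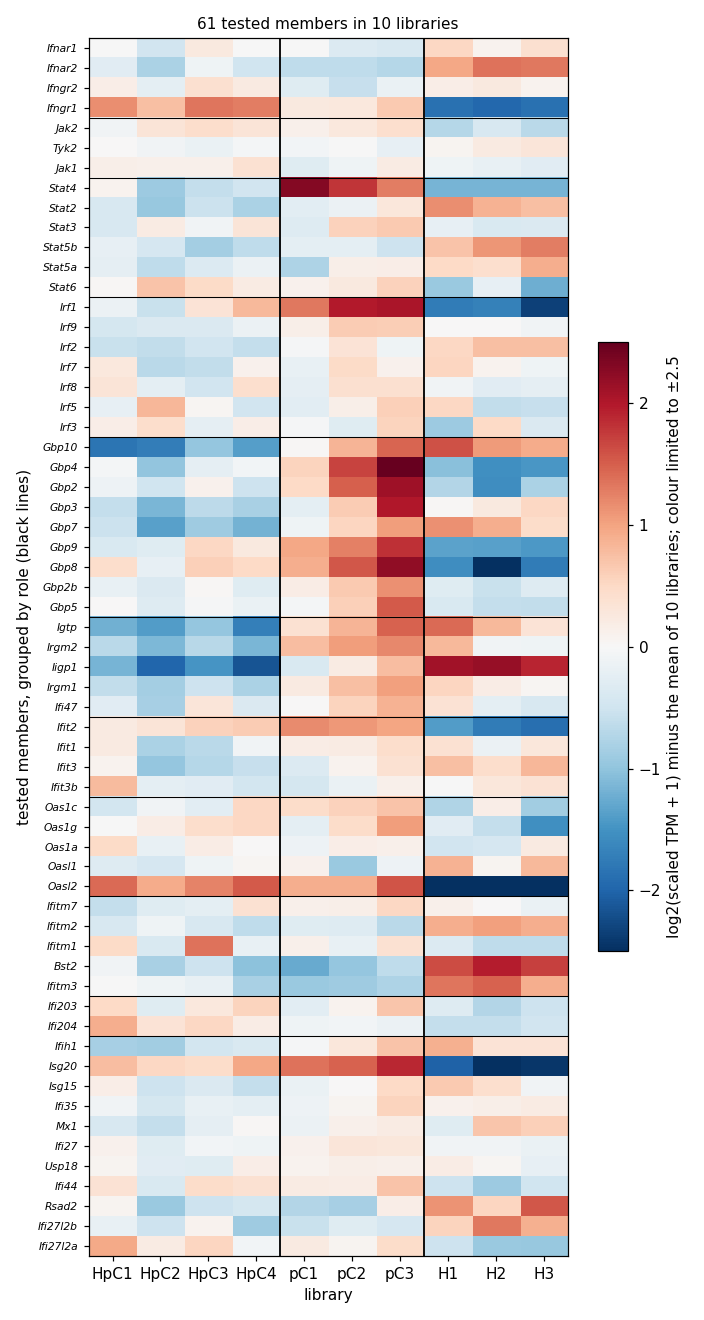
Level of each of the 61 tested members (rows, grouped by role) in each of the 10 libraries (columns), as log2(scaled TPM + 1) minus the gene's mean over the 10 libraries. In 8 of the 9 rows of guanylate-binding proteins HpC1 to HpC4 lie below all pC libraries, in all 9 pC3 is the highest of pC, and Bst2, Ifitm2 and Ifitm3 are high across H1 to H3.

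The antiviral families linked to type I interferon gave 1 call between HpC and pC. Of 11 tested genes outside the large families, Ifih1, which encodes the double-stranded RNA sensor MDA5, was lower, with 6.37, 6.15, 8.47 and 8.99 scaled TPM in HpC against 11.8, 14.9 and 20.3 in pC. The log2 difference was -0.96 ± 0.22 (SE; limma adjusted p = 0.0402), and the call ended without HpC1, HpC2, HpC3, pC2, pC3, H2 or H3 and on deposited TPM, with an adjusted p of up to 0.203. Isg20, an RNA exonuclease, had 22.96, 19.2, 18.5 and 26.5 in HpC against 35.04, 38.3 and 50.9 in pC without overlap, but did not pass (-0.89 ± 0.24, SE; limma adjusted p = 0.0743). Isg15, a ubiquitin-like modifier, had 7.71, 4.43, 5.02 and 4.13 in HpC against 5.88, 6.85 and 9.94 in pC and overlapped. Usp18, which removes ISG15 and dampens type I signalling, had 4.94, 3.63, 3.56 and 5.37 in HpC against 4.99, 5.25 and 5.15 in pC. The 95% intervals of their log2 differences were -1.005 to 0.12 for Isg15 and -0.59 to 0.17 for Usp18.

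Rsad2, whose product viperin blocks viral replication, had 3.22, 1.11, 1.81 and 1.96 scaled TPM in HpC against 1.44, 1.26 and 3.51 in pC. The interval of its log2 difference was -0.73 to 0.75, and that of the antiviral GTPase gene Mx1, at under 1 scaled TPM in every cholangiocyte library, was -0.95 to 0.23. Ifi27, the most abundant gene of this mixed class, had 95.7, 71.8, 84.7 and 81.9 in HpC against 95.1, 109 and 108 in pC and did not pass (limma adjusted p = 0.251). The remaining tested genes, Ifi27l2a, Ifi27l2b, Ifi35 and Ifi44, overlapped between HpC and pC, and Ifi44l was listed at 0 in every library.

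None of the 16 tested Ifit, Oas, Ifitm, Bst2 or Ifi200 genes passed by limma between HpC and pC, and 4 of them had an unadjusted p under 0.05. Ifit2, an RNA-binding antiviral protein, had 5.603, 6.12, 7.48 and 7.804 scaled TPM in HpC against 11.9, 11.03 and 10.3 in pC without overlap (-0.65 ± 0.17, SE; limma adjusted p = 0.0653). Ifit1 and Ifit3 had log2 differences of -0.61 and -0.58, and the 95% interval of Ifit1 was -1.18 to -0.03. Oasl2, the most abundant Oas gene in HpC and pC, had 33.1, 23.3, 28.9 and 35.5 in HpC against 22.9, 22.8 and 36.9 in pC, an interval of -0.37 to 0.67. Oas1a, Oas1c, Oas1g and Oasl1 lay between -0.66 and 0.11 on the log2 scale. Ifitm3, which stops viruses from fusing with endosomes, had 89.8, 83.7, 79.03 and 51.5 in HpC against 46.8, 48.5 and 52.5 in pC. Its interval of 0.12 to 1.06 lay above 0 but the adjusted p was 0.175 by limma. Ifi204, a DNA-sensing member of the Ifi200 family, was at 0.721 to 1.84 in HpC against 0.372 to 0.445 in pC, with no overlap and no call. It passed the filter only through HpC.

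Most members that were not tested were close to silent. Of the 22, 18 stayed under 1 scaled TPM in every library, among them Oas2, Oas3, 4 further Oas1 copies and 7 Ifi200 genes. Ifit1bl2, Ifitm10 and Ifi211 reached 1.13 in pC3, 3.07 in HpC2 and 1.89 in HpC3. Ifi202b, a DNA-binding Ifi200 member, was at 0, 48.2, 0 and 0.785 in HpC1 to HpC4, against 0, 0.0779 and 0.115 in pC. HpC2, the library with squamous epithelial transcripts, was thus the sole library with more than 1 scaled TPM of it. Oas, Ifi200 and Ifitm copies are near-identical in places, so their single values are uncertain.

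Against hepatocytes, both cholangiocyte groups had more Ifngr1, Irf1, Oasl2, Isg20 and Ifit2 and less Bst2. HpC against H gave 15 members higher, 20 lower and 26 not called by limma at 5%, where 30.7% of all genes tested were higher and 29.2% lower (59.9% called). The comparison of pC with H gave 20 higher, 14 lower and 27 not called, where 31.1% of all genes were higher and 28.6% lower (59.6% called). The members' called share was 57.4% for HpC and 55.7% for pC, near that of all genes. Median log2 differences over the tested members were -0.18 for HpC and 0.33 for pC against H, and 0.08 and 0.11 over all genes tested. All HpC libraries lay above all H libraries in 19 members and below them in 23, against 31.6% and 28.9% of all genes tested. All pC libraries lay above all H libraries in 24 members and below them in 15, against 37.1% and 33.2% of all genes. These comparisons share the H libraries. Among the higher members, Oasl2, Ifit2, Ifi27l2a and Oas1g stayed under 1 TPM in every H library and passed the filter only through cholangiocytes. So did Ifi203 and Ifi204 of the HpC calls, and Oas1c, Stat4, Gbp2b and Gbp5 of the pC calls. The direction of these calls, and the lack of overlap in such genes, was thus largely set by the filter. The direction of many lower calls depended on scale: on deposited TPM all 15 and all 20 higher calls held, but 5 of 20 lower calls held for HpC and 1 of 14 for pC, where Ifnar1, Ifngr2 and Irf2 turned to higher. The split on deposited TPM was 25 higher and 5 lower members for HpC, against 7553 and 1519 over all genes, and 45 higher and 1 lower for pC, against 9361 and 1255 over all genes.

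Ifngr1 had 20.6, 19.1 and 20.4 scaled TPM in H1 to H3, a log2 difference of 3.03 ± 0.18 for HpC (SE; limma adjusted p = 3.45e-07) and 2.28 ± 0.19 for pC. Every HpC and pC library lay above every H library. Irf1 had 53.7, 55.5 and 35.2 in H, and was higher by 2.04 ± 0.33 in HpC and by 3.71 ± 0.35 in pC. Oasl2 had 1.11, 0.366 and 0.932 in H, with differences of 4.12 ± 0.23 for HpC and 3.97 ± 0.25 for pC (limma adjusted p = 3.05e-07 and 5.7e-07). Isg20 had 2.49, 0.759 and 1.62 in H, with differences of 3.16 ± 0.24 for HpC and 4.05 ± 0.26 for pC. Ifit2 had 1.14, 0.689 and 0.535 in H, and was higher by 2.12 ± 0.17 in HpC and by 2.77 ± 0.18 in pC. Oasl2 and Ifit2 passed the filter only through the cholangiocyte groups.

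The GTPases split by gene against hepatocytes. Gbp8 had 2.84, 0.724 and 2.36 scaled TPM in H, and was higher by 2.34 ± 0.36 in HpC and by 3.57 ± 0.39 in pC. Gbp9 had 3.15, 3.102 and 2.88 in H, and was higher by 1.40 ± 0.26 in HpC and by 2.73 ± 0.28 in pC. Gbp4 had 1.72, 0.929 and 1.04 and Gbp2 5.01, 2.42 and 4.82 in H, and both passed for pC (3.13 and 2.39) but not for HpC (1.01 and 0.76). Igtp had 95.4, 62.2 and 44.8 in H, a level from which pC was not called different (0.05 ± 0.33, limma adjusted p = 0.907) and below which HpC lay (-2.17 ± 0.31, limma adjusted p = 0.000169). The likeness of pC and H depended on scale. On deposited TPM, Igtp was at 70.8, 101 and 157 in pC against 55.8, 31.1 and 22.6 in H. Gbp10 was there at 20.2, 38.1 and 59.4 in pC against 24.04, 14.02 and 12.9 in H. In scaled TPM, Gbp10 had 41.1, 28.1 and 25.5 and Gbp7 9.71, 8.17 and 5.72 in H. Both were lower in HpC (-2.67 and -1.83) and not called in pC (-0.41 and -0.34). The test of the difference between the cholangiocyte groups for these genes is that of HpC against pC above.

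Iigp1 was the most abundant of these GTPases in every H library, with 167, 174 and 143.9 scaled TPM in H. It was lower in HpC by -3.75 ± 0.30 (SE; limma adjusted p = 2.49e-06), also on deposited TPM, and lower in pC by -1.86 ± 0.32, a call lost on deposited TPM. Irgm1 had 56.3, 43.5 and 39.5 and Irgm2 26.5, 13.8 and 13.7 in H. Both were lower in HpC on the scaled values (-0.95 and -1.11), which did not hold on deposited TPM, where Irgm1 was at 0.15. Irgm2 was higher in pC than in H by 0.81 (limma adjusted p = 0.0233), a call that ended without pC2, pC3, H2 or H3 (up to 0.0933).

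Bst2, whose product tetherin holds budding virions at the cell surface, had 26.9, 15.9, 19.8 and 13.7 scaled TPM in HpC and 11.4, 14.2 and 18.1 in pC, against 90.96, 115 and 95.4 in H. It was lower by -2.37 ± 0.23 in HpC and by -2.72 ± 0.25 in pC, and alone among the lower members held in both comparisons on deposited TPM. Ifitm3 had 229, 252 and 172 in H. Ifitm2, a close relative, had 41.4, 51.2, 41.9 and 35.01 in HpC and 44.4, 43.96 and 34.4 in pC, against 104, 114 and 105 in H. Ifnar2 had 149.6, 197 and 192 in H, and Rsad2 7.78, 4.86 and 10.9. These 4 genes were lower on scaled values in both cholangiocyte groups, with log2 differences of -1.52, -1.33, -1.63 and -1.53 in HpC, and none passed on deposited TPM.

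**Figure D5:**
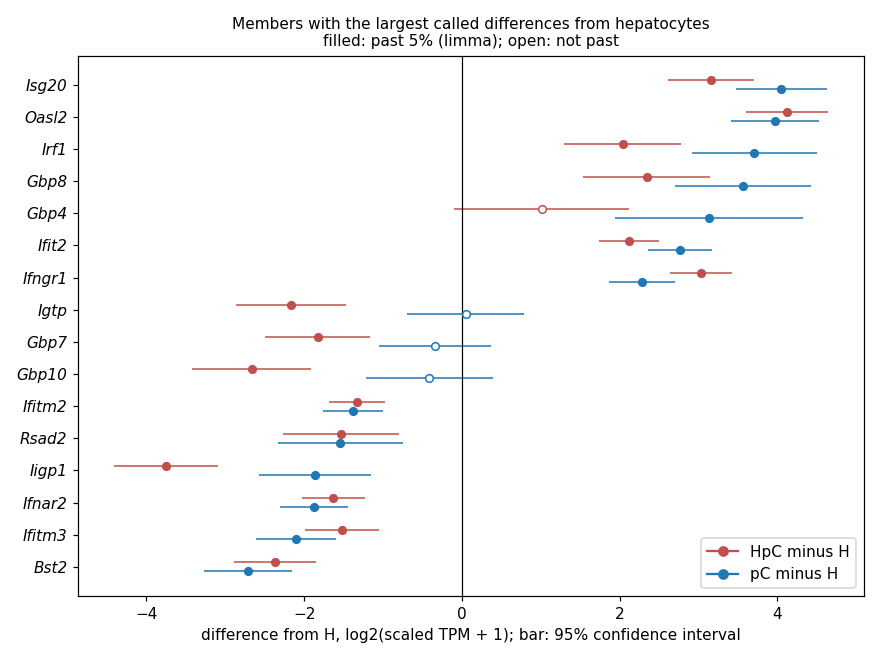
Difference from hepatocytes in log2(scaled TPM + 1) with 95% confidence intervals for HpC (red, upper of each pair) and pC (blue, lower), for the members with the largest called differences from H, without Stat4, which is listed at 0 in H; filled points passed 5% by limma. Isg20, Oasl2, Irf1, Gbp8, Ifit2 and Ifngr1 lie right of 0 in both groups, Bst2 lies left in both, and Igtp, Gbp7 and Gbp10 lie left of 0 in HpC with pC intervals that cover 0.

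The signalling chain in hepatocytes completes the order of levels. Jak2 had 3.91, 5.07 and 4.03 scaled TPM in H, and was higher by 0.84 in HpC and 0.86 in pC. Jak1 had 70.9, 66.9 and 62.2 and Tyk2 3.25, 3.72 and 3.95 in H. Jak1 passed for HpC by a narrow margin (0.38 ± 0.15, SE; limma adjusted p = 0.0497), and not without any 1 of HpC1, HpC3, HpC4, pC2 or the H libraries (up to 0.159). Stat2 had 21.6, 17.4 and 15.8, Irf2 35.04, 41.6 and 41.1 and Ifih1 22.98, 15.5 and 15.5 in H. Those 3 were lower in HpC by -1.60, -1.24 and -1.15, none of them on deposited TPM. Stat2 and Irf2 were also lower in pC, by -0.97 and -0.60, and neither was lower there on deposited TPM. Ifih1 was not called in pC. Ifnar1 had 30.2, 22.2 and 27.5, Ifngr2 18.05, 18.98 and 17.01, Irf9 18.3, 18.2 and 17.05, Irf7 27.2, 19.5 and 16.98, Stat3 209, 187 and 189 and Ifi27 83.7, 83.6 and 79.2 in H. In pC, Ifnar1 and Ifngr2 were lower by -0.58 and -0.53 and Irf9 was higher by 0.49. Each of these 3 calls was lost when 1 of several libraries was left out (Ifnar1 without pC2, pC3, H1 or H3, Ifngr2 without pC1, pC2 or any H library, Irf9 without pC2, pC3 or any H library), with adjusted p up to 0.108, 0.13 and 0.0957.

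Other genes of the pathway, from a list of 95 written with earlier results of these data known, were also lower in HpC than in pC where they passed the test. Of 80 tested, 19 were lower in HpC by limma at 5%, 0 were higher and 61 did not pass, with 41 of the 80 at an unadjusted p under 0.05. The called share was 23.8% and the median log2 difference -0.46, against 4.54%, -0.01 and an unadjusted p under 0.05 in 17.8% over all genes tested. The antigen presentation genes gave 12 of the 19, out of 20 tested, with a median of -1.61. Ciita, the master switch of class II genes, had 0.539, 0.395, 0.671 and 0.595 scaled TPM in HpC1 to HpC4, against 3.27, 4.57 and 9.86 in pC1 to pC3 (-2.04 ± 0.28, SE; limma adjusted p = 0.00323). Like Stat4 it passed the filter only through pC. Its targets H2-Aa, H2-Ab1, H2-Eb1, H2-DMa, H2-DMb1 and Cd74, which build, load and chaperone class II molecules, had log2 differences of -3.25, -2.77, -2.54, -2.45, -2.39 and -2.37. Cd74, the most abundant of them, had 149.7, 110.1, 184 and 106 in HpC against 371, 849 and 1083 in pC. The H2-Aa call ended without pC2 (adjusted p = 0.0523 by limma) and that of H2-DMa with a pseudocount of 0.1 (adjusted p = 0.0703), and histocompatibility genes have near-identical copies that make single values uncertain.

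Tgtp2, a further interferon-induced GTPase, had 200.4, 165, 235 and 126 scaled TPM in HpC against 707, 977 and 1158 in pC (-2.38 ± 0.37, SE; limma adjusted p = 0.00562). It shares sequence with Tgtp1, so both are uncertain. The other lower genes were Tgtp1, the class I route genes H2-K1, Tap1, Psmb8, Psmb9 and Psme1, the sensors Tmem173 and Zbp1, and Trim21, Epsti1 and Ddx60. Of 17 other settings, H2-K1 was called in 3, Epsti1 and Trim21 in 6 each, Psme1 in 9, Ddx60 in 12, Tgtp1 and Zbp1 in 13 each and Psmb8 in 16. Leaving out pC3 ended 7 of these 8 calls, Psmb8 excepted, and the largest limma adjusted p was 0.211, for H2-K1. None of the list's 9 other receptors and regulators passed by limma, the feedback inhibitors Socs1 and Socs3 among them, and 2 had an unadjusted p under 0.05. Those were Cish, which was higher in HpC, and Pias1, which was lower. The 11 interferon genes of the list were not tested. Ifng was at 0, 0.153, 0.114 and 0.0346 in HpC against 0.0411, 0.165 and 0 in pC and listed at 0 in H, and Ifnb1 was listed at 0 in all libraries but HpC1, with 0.145 scaled TPM. Ifnk alone exceeded 1 scaled TPM, with 2.16 in H1.

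Markers of immune cells overlapped between HpC and pC. Summed leukocyte markers (5 genes) ran from 3.48 to 10.6 scaled TPM in HpC and from 2.79 to 9.102 in pC, with Ptprc at 0.43 or less in every library. The sum was higher in H, at 16.3 to 26.5, where Lcp1 alone had 16.2 to 26.5. Lcp1 had 2.72 to 4.25 in HpC and 1.96 to 6.06 in pC, so this sum does not measure leukocytes alone. Macrophage and Kupffer cell markers (12 genes) ran from 17.1 to 48.5 in HpC and from 29.1 to 39.3 in pC. Csf1r alone gave 9.63 to 24.9 of these sums in HpC and 12.4 to 16.8 in pC. Dendritic cell markers (7 genes) ran from 0.431 to 1.44 in HpC and from 0.439 to 0.618 in pC. Neutrophil markers (5 genes) ran from 0.270 to 18.1 in HpC and from 0.0368 to 0.313 in pC. The highest sum was in HpC2, where S100a9 alone had 16.2, and HpC1 had 2.19. Endothelial markers (9 genes) ran from 8.34 to 19.96 in HpC and from 10.7 to 15.3 in pC. Of these lists, 3 leukocyte, 9 macrophage and Kupffer cell, 0 dendritic cell, 0 neutrophil and 8 endothelial genes were tested. None was called between HpC and pC. For dendritic cells and neutrophils no call could thus be made. Cholangiocyte markers went both ways: Spp1 was called lower in HpC, while Krt7, which was not called, was at 92.3, 103, 157 and 129 scaled TPM in HpC against 70.3, 51.4 and 77.5 in pC. Of the 8 hepatocyte markers Serpina1a alone was called, as higher, and the 7 without Alb summed to 387 to 1273 in HpC and 216 to 606 in pC. Stellate cell and fibroblast markers summed to 22.5 to 85.7 in HpC against 19.6 to 29.6 in pC, with Col3a1 called higher. Mesothelial sums did not overlap, at 31.4 to 54.04 in HpC against 24.1 to 30.3 in pC, with Wt1, Upk1b and Msln called higher and Gpm6a lower. The part of these cell types in the interferon gene levels was not tested. With HpC1 and HpC2, the libraries with pancreatic and squamous transcripts, left out, 7 members were called, of which 6 were lower (Stat4, Igtp, Irgm1, Irgm2, Iigp1 and Gbp10) and Ifngr1 was higher. Of these, Stat4 passed the filter only through pC.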

How the data were processed

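RNA from sorted cells was extracted with a PicoPure kit and made into libraries with a low-input kit, and 50-base single-end reads were taken, per the labels. The authors deposited 1 table per library with TPM for each of 85276 Ensembl transcripts, which sum to 1000000 TPM per library. The submitters' processing notes name kallisto, DESeq and mm10, with neither versions nor roles. Because no counts were given, depth and counting error are unknown and no count test was run.

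Transcripts were joined to GENCODE M21 genes by identifier: 81927 matched, and 3349 with 4.22% to 9.06% of a library's TPM did not and were left out. TPM was summed per gene. The 14765 genes that reached 1 TPM in 3 or more libraries were rescaled by an unweighted trimmed mean of log ratios, leaving out 30% of log ratios and 5% of mean levels at each end. Tests used limma 3.58.1 (R 4.3.3) with a trended prior on log2(scaled TPM + 1), which understates changes of low genes, in 1 fit of all 10 libraries, with Benjamini-Hochberg adjustment over all genes tested. The method was tested on simulated data. Python 3.11.15 with pandas 2.3.3 made the tables and matplotlib 3.10.9 the figures. Promoter windows came from RefSeq (GRCm38.p6); 69 of 83 members matched by symbol.

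Members and gene lists were chosen with earlier results of these data known. Annotated genes that match the symbols but are not protein-coding in GENCODE M21 (5) were left out, and Gbp6 was not analysed here. A further 2 genes that match the symbols are not reported here and are left out of all member counts and figures. Values in every library are given for members past 5% between HpC and pC, the 6 largest called differences per direction from H, the signalling chain with Irf1 and Irf7, and the most abundant member of each role; from the pathway list, at most the 8 largest were named with values. Alternatives were a pseudocount of 0.1, no filter, TPM as deposited, array weights, a replicate block, leaving out each library or both HpC1 and HpC2, and a fit of 2 groups only.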

Additional observations from a re-analysis of the deposited data

Results flagged for a closer look

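Among the 34 named members, 2 had a single HpC library far from the other 3, where about 1 in 20 groups is marked so by chance. Ifi202b stood at 48.2 scaled TPM in HpC2, against 0 to 0.115 in pC and at most 0.785 in the other HpC libraries. It was named only because its mean was the highest of its role, and that mean rested on HpC2. The chance rate therefore does not apply to Ifi202b. HpC2 is also the library with 33316 scaled TPM of squamous epithelial markers, and its part in this level was not tested. Jak1 stood at 98.7 scaled TPM in HpC4, with 83.4 to 83.96 in the other HpC libraries.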

How the results depend on the processing

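The calls of Igtp, Irgm1, Irgm2, Iigp1 and Gbp10 between HpC and pC held in all 17 alternatives. Members called between HpC and pC numbered 15, against 22 with array weights (4 higher and 18 lower), 9 with the replicate block, 7 without HpC1 and HpC2, 6 in a fit of 2 groups only and 5 to 13 when 1 library was left out (5 without pC2, 6 without pC3, 8 without HpC3). Over all genes the 671 calls became 1797 with array weights, 393 in a fit of 2 groups only and 271 to 794 with 1 library left out, and the 19 calls of the pathway list became 11 to 19. The fits of 2 groups and those without a library have fewer samples. On deposited TPM the sign of pC minus H turned to 0.99 for Gbp7, 1.27 for Ifih1, 0.16 for Ifitm2, 0.90 for Ifnar1, 0.93 for Ifngr2, 0.91 for Irf2, 1.44 for Irf7, 0.47 for Stat2 and 0.87 for Tyk2, and that of HpC minus H to 1.03 for Ifngr2 and 0.15 for Irgm1; here the scaling itself shifts all genes. Of 1673 values of named members over the alternatives, 1502 stayed on the same side of the threshold (44 with another sign, called in neither), 121 lost their call, 39 gained one and 11 changed sign. Replicate numbers did not pair the samples: deviations of same-numbered libraries correlated from -0.05 to 0.08, HpC4 has no partner, and the block is therefore given only here. Unknown depth limits genes of a few TPM most.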

Other observations

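Of the genes that match the symbols without being annotated as protein-coding, Gbp11 was the one with the widest gap between cell types, at 1.09 to 3.79 scaled TPM in HpC and 1.81 to 3.804 in pC, against 28.6 to 42.9 in H. Ifi30 was at 9.96 to 19.01 in HpC and 8.73 to 13.5 in pC, against 3.77 to 8.46 in H. Mx2 was at 0.556 to 1.53 in HpC and 1.36 to 2.23 in pC, against 2.92 to 5.26 in H. Oas1b was at 1.04 to 1.78 in HpC and 1.105 to 3.07 in pC, against 0.479 to 0.905 in H.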
